A study of Mus musculus with 8 samples.

Results

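The complement, coagulation and fibrinolysis genes described here are 37 genes, 22 of complement and 15 of coagulation and fibrinolysis, out of 37046 gene features measured in white adipose tissue. All genes of a fixed list of symbols were kept, whatever their values, and each symbol matched exactly 1 gene. The list was drawn up with earlier results of these data known, so counts of members set beside the share of all genes are descriptions. RNA was sequenced in 8 libraries of Wild-type C57BL/6J female mice: 4 after PBS, the vehicle, and 4 after 50 mg/kg endostatin, a fragment of collagen XVIII that inhibits the growth of blood vessels, both given through the tail vein. Tissue was taken 2 h after injection, and food was withheld from both groups in between. The labels place replicates 1 and 2 of each group in batch 1 and replicates 3 and 4 in batch 2, and they give no age. They do not tie a library to an animal, and the series text's 4 female mice could be the number in each group or in all. The p-values here therefore reflect only how these samples spread, in part perhaps for technical reasons. The tissue is labelled epididymal although the mice are female, and the description of endostatin 4 repeats the read file name of endostatin 3.

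Complement is a cascade of plasma proteases and the proteins they cut. The classical pathway starts when C1q binds its target and activates C1r and C1s, which cleave C4 and C2. The lectin pathway reaches the same step through MASP proteases, and the alternative pathway amplifies C3 cleavage through factor B, factor D and properdin. All routes meet at C3 and end in the pore-forming terminal complex. Most plasma complement and clotting proteins are made by hepatocytes, but adipocytes are the main source of factor D, also called adipsin, and C1q is made largely by macrophages. Coagulation starts from tissue factor, is held back by thrombomodulin, protein C, protein S, TFPI and antithrombin, and the clot is dissolved by plasmin, which the activators tPA and uPA release from plasminogen.

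The 250 bases before the transcription start are shown for 4 members that stand for the sources compared below: Cfd for adipocytes, C1qb and C1qc for macrophages, and Serpinc1, which encodes antithrombin, for liver. They come from RefSeq on GRCm38.p6, whose promoter table held 25 of the 37 members. Capitals mark the letters ACTTCCT, the reverse complement of AGGAAGT, the core recognised by the macrophage factor PU.1.
Cfd, chr10:79890603-79890852, plus strand: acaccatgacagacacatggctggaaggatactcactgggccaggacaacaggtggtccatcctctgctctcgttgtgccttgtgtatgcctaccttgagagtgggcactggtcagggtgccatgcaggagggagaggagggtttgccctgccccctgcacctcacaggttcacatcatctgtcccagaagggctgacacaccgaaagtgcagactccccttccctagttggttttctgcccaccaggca
C1qb, chr4:136886201-136886450, minus strand: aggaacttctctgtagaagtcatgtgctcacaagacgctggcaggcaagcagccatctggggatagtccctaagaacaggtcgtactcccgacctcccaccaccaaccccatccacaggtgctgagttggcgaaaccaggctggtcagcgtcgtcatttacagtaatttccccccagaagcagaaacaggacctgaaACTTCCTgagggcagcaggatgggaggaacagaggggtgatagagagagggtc
C1qc, chr4:136892915-136893164, minus strand: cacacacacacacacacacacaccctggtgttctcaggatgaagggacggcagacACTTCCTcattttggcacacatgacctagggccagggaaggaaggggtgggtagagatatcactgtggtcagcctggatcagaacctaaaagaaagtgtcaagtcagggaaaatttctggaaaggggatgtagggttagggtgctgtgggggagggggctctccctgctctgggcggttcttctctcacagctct
Serpinc1, chr1:160978333-160978582, plus strand: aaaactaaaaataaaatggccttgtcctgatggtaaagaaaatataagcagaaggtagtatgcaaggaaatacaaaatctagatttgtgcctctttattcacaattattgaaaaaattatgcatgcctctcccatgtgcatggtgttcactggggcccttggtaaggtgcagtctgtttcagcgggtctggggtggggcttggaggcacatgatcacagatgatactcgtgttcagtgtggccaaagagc

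On either strand, AGGAAGT was in the window of 5 of the 25 members (C1qb, C1qc, C5ar1, F13a1 and Tfpi) and in 7.69% of 32851 promoter windows of the same length. In C1qb the match began 53 bases before the start, and in C1qc 195 bases before it. The match in C1qc extended to GAGGAAGT, which contains AGGAAGT and was in 2.44% of all windows. The other strings searched on both strands were the short HNF1 site GTTAAT, the HNF4 form CAAAGTCCA, the C/EBP forms TTGCNNCAA and TTNNGCAAT, the TATA box TATAAA, the CCAAT box, the NF-kB forms GGGANNTCC and its narrower case GGGANTTCC, the AP-1 site TGANTCA, the E-box CACGTG and the glucocorticoid receptor site ACANNNTGT. With the full HNF1 and DR1 motifs, given here by name only, 15 were searched in all. None of the 15 had a match in the Cfd or Serpinc1 window. AGGAAGT was chosen for display after the matches were seen, and a match describes letters, not a bound site.

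The libraries held 15826783 to 23786594 estimated counts, so that a count of 0 allowed up to 3 counts, or 0.126 to 0.190 CPM (counts as a share of the library, scaled), in any one library (counting error only). Of the 37 members 35 had a count in 8 of 8 libraries, and 33 passed the filter on low counts. Vsig4, F7, Proc and Serpind1 did not and have levels but no test in the main fits. Adipocyte markers dominated each library, at 28840 (control 3) to 62776 summed TPM over 9 genes, where TPM is a level per transcript length, with an equal total for every library. Markers of oviduct and uterus summed to 22.2 to 53.5 TPM in 6 libraries but reached 575 TPM in control 3 and 393 TPM in endostatin 4 (10 genes). Of the 10 genes, 6 were higher in both of these than in each of the other 6. In endostatin 4 Ltf alone was at 298 TPM. There Pgr, Ovgp1, Foxj1 and Wnt7a, all highest in control 3, were not above each of the other 6. These 2 libraries stand apart, and results were also computed without them. Markers of skeletal muscle were highest in control 4 (423 TPM) and control 1 (214 TPM). In bulk samples like these, fewer cells of a type and less RNA per cell cannot be told apart.

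**Figure D1:**
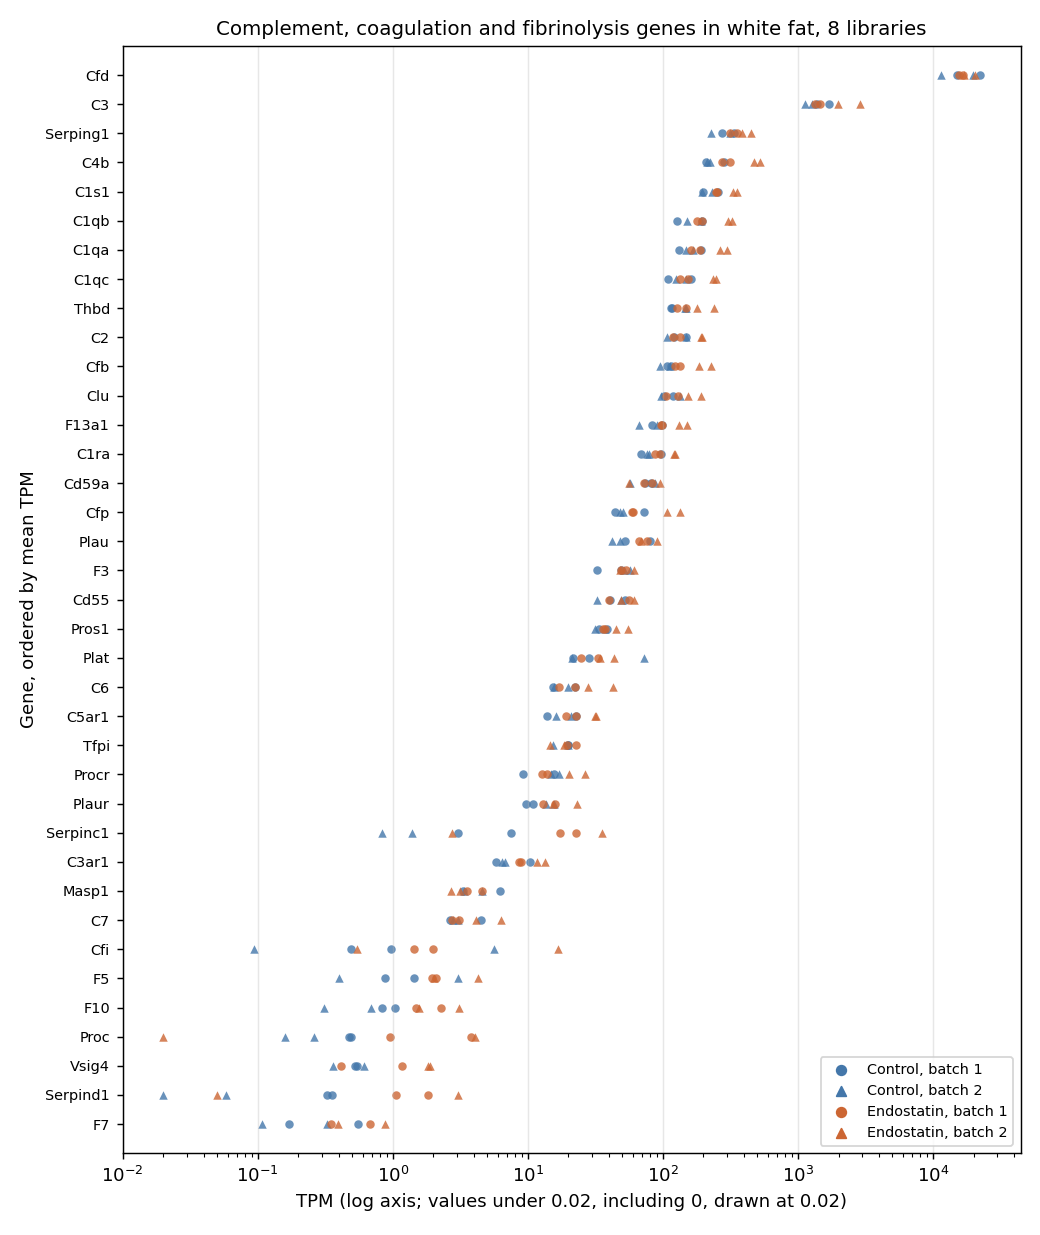
Level of each of the 37 genes in each of the 8 libraries, in TPM on a log axis (level per length). Genes are ordered by mean TPM, with a point for each library. Control and endostatin libraries are in different colours. Cfd lies between 11399.5 and 22209.8 TPM, above C3 at 1126 to 2882 TPM, and Cfi and Serpinc1 spread widely between libraries.

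Cfd, the factor D or adipsin gene, was the most abundant member and ranked 4 among all gene features by mean TPM. Its level was 15190.1, 22209.8, 11399.5 and 19671 TPM in control libraries 1 to 4 and 16813, 15716, 17092 and 20666 TPM in endostatin libraries 1 to 4, the order used for every list of values here. The lowest value was in control 3, the library with the lowest adipocyte marker sum, and the groups overlapped. Cfd alone made up 75.0% to 84.9% of the summed TPM of the 37 genes. Its mean was 17118 ± 4791 (SD, n = 4) in control and 17572 ± 2147 (SD, n = 4) in endostatin libraries, and the endostatin difference was -0.018 on the log2 scale (SE 0.31, 95% interval -0.73 to 0.69; edgeR unadjusted p = 0.955).

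C3, the protein on which all pathways meet, was the second most abundant member (rank 56). Control libraries held 1392, 1700.1, 1126 and 1264 TPM and endostatin libraries 1461, 1339, 1989 and 2882 TPM, so that endostatin 3 and 4 lay above every control and endostatin 1 and 2 did not. The other alternative pathway genes were lower. Cfb, which encodes the protease factor B, stood at 115, 107, 95.5 and 112 TPM in control and 122, 133, 186 and 229 TPM in endostatin libraries, and its groups did not overlap. Cfp, which encodes properdin, the protein that stabilises the C3 convertase, stood at 44.5, 72.9, 48.2 and 51.0 TPM and 60.3, 58.9, 107 and 134 TPM. As with C3, only endostatin 3 and 4 were above all controls.

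Of the 7 classical pathway genes each had a mean above 50 TPM. C1qa, one chain of the C1q recognition molecule, was at 131, 191, 148 and 168 TPM in control and 162, 187, 297 and 267 TPM in endostatin libraries. The second chain, C1qb, was at 127, 196, 152 and 192 TPM and 180.0, 196, 325 and 303 TPM. C1qc, the third chain, was at 109, 162, 126 and 149 TPM and 135, 153, 237 and 246 TPM. In each of the 3, endostatin 3 and 4 held the highest levels of the 8 libraries and control 1 the lowest. The ratio of C1qa to the summed TPM of 12 macrophage markers was 0.174 to 0.210 across the 8 libraries, while that sum itself ranged from 709 to 1531 TPM.

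The proteases C1r and C1s and their substrates followed. C1s1 was at 197, 258, 231 and 196 TPM in control and 251, 246, 333 and 355 TPM in endostatin libraries, and C1ra at 68.5, 97.1, 79.2 and 75.8 TPM and 95.1, 88.0, 120.3 and 123 TPM. Their near-copies C1s2 and C1rb stayed at or below 0.701 and 0.281 TPM, and the division of reads between such copies is uncertain. C4b, the source of the C4b fragment that tags targets and a gene with a near-copy, C4a, was at 209, 283, 222 and 214 TPM and 276, 316, 475 and 527 TPM. C2, which encodes the protease that pairs with C4b, was at 122, 147, 108 and 148 TPM and 135, 119.8, 195 and 192 TPM. In C1s1, C1ra, C4b and C2 alike, endostatin 3 and 4 were the highest of all libraries. Masp1, the lectin pathway protease gene, was at 2.72 to 6.26 TPM, with its highest level in control 1.

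Terminal pathway and receptor genes were low. C6 lay between 15.3 TPM (control 1) and 42.9 TPM (endostatin 3), and C7 between 2.63 TPM (control 1) and 6.28 TPM (endostatin 4). The anaphylatoxin receptors C5ar1 and C3ar1, found on myeloid cells, had mean levels of 22.4 and 9.02 TPM. C5ar1 was at 13.8, 22.7, 16.0 and 20.7 TPM in control and 19.3, 22.8, 31.6 and 32.2 TPM in endostatin libraries, with control 2 and 4 above endostatin 1. Vsig4, a macrophage receptor for C3 fragments, was at 0.363 to 1.89 TPM.

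Among the regulators, Serping1, which encodes the C1 inhibitor, was the highest. Its level was 273, 335, 312 and 227 TPM in control and 351, 313, 389 and 448 TPM in endostatin libraries. Clu, the clusterin gene, whose product blocks pore assembly, was at 102, 119, 134 and 96.1 TPM and 128, 105, 154 and 191 TPM. Both were lowest in control 4 and highest in endostatin 4. The membrane regulators had other orders of libraries. Cd59a, an inhibitor of the terminal pore, was at 81.2, 74.3, 57.4 and 87.0 TPM and 71.9, 83.2, 95.5 and 56.4 TPM, with its 2 lowest values in control 3 and endostatin 4. Cd55, which speeds convertase decay, ranged from 32.8 TPM in control 4 to 61.6 TPM in endostatin 4. Cfi, the factor I gene, whose product cuts C3b and C4b, was at 0.491, 0.965, 5.65 and 0.0944 TPM and 1.99, 1.44, 0.540 and 16.7 TPM. Its 2 highest values were in control 3 and endostatin 4, the libraries with the highest sums of oviduct and uterus markers. The part of that tissue in the Cfi level was not tested.

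Among the coagulation members, Thbd, F13a1 and F3 had the highest mean levels. Thbd, which encodes the endothelial thrombin receptor thrombomodulin, was at 117, 115, 148 and 146 TPM in control and 149, 127, 241 and 179.6 TPM in endostatin libraries. F13a1, the clot crosslinking factor XIII A chain, also made by macrophages, was at 83.1, 98.8, 66.6 and 90.5 TPM and 96.4, 98.5, 152 and 132 TPM. F3, the tissue factor gene, was at 32.8, 49.3, 57.4 and 52.0 TPM and 49.2, 53.5, 48.4 and 61.4 TPM. Thbd and F13a1 were highest in endostatin 3, and F3 showed no such order, with control 3 second to endostatin 4.

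The factor genes F5, F7 and F10 were scarce. F5, which encodes the cofactor of factor X, was at 0.400 to 4.27 TPM, and F7, the partner of tissue factor, at 0.107 to 0.873 TPM. F10, the factor X gene, was at 1.05, 0.838, 0.694 and 0.307 TPM in control and 2.26, 1.49, 1.57 and 3.09 TPM in endostatin libraries without overlap, on 224 counts in the 8 libraries together. Pros1, the gene of the cofactor protein S, was at 33.4, 38.7, 31.6 and 37.3 TPM and 37.3, 36.3, 44.7 and 55.1 TPM. Procr, the endothelial protein C receptor gene, ranged from 9.22 to 26.4 TPM, and Tfpi, which encodes the inhibitor of tissue factor, from 14.5 TPM in endostatin 3 to 22.6 TPM in endostatin 1. The narrowest range of the members was that of Tfpi, with a ratio of 1.56 between its highest and lowest library.

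For fibrinolysis, Plau, which encodes uPA, was at 52.3, 80.6, 41.7 and 48.4 TPM in control and 76.2, 67.1, 69.1 and 90.1 TPM in endostatin libraries. Its receptor gene Plaur was at 9.66, 10.97, 15.7 and 13.6 TPM and 12.9, 15.8, 23.3 and 15.3 TPM. Plat, which encodes tPA, was at 21.8, 28.3, 72.0 and 21.1 TPM and 33.1, 25.0, 34.2 and 43.3 TPM, with control 3 above all others. Endostatin and control libraries overlapped in all 3 genes.

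The next comparison asked which members follow liver transcripts. Albumin (Alb), a hepatocyte product, was at 88.6, 51.0, 10.0 and 18.3 TPM in control and 194, 257, 17.2 and 487 TPM in endostatin libraries, against 3761, 3901, 2416 and 4630.0 TPM and 3394, 3735, 4995 and 3780.3 TPM for Adipoq, the adiponectin gene of adipocytes. A hepatocyte index was the summed TPM of 26 liver genes that are neither members nor among the other pathway genes listed here. It was 198, 129, 24.6 and 38.8 TPM in control and 436, 676, 29.6 and 1280.1 TPM in endostatin libraries. Control 3, control 4 and endostatin 3 were low, and endostatin 1, 2 and 4 were high. Alb is 1 of the 26 genes, so its own slope on the index is not given. Slopes are log2 changes in counts per doubling of the index, with batch and treatment in the model, and that of Adipoq was -0.028 (SE 0.10).

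Over all 15184 genes tested, 42 had a positive slope past the threshold, an adjusted p under 0.05 (0.277%), and none a negative one (0%; edgeR, with 302 at an unadjusted p under 0.05; DESeq2 called 118 in either direction). Among the 33 tested members 0 were past it in edgeR and 1 was at an unadjusted p under 0.05, against 4.74% of all genes in either direction. The median slope of the members was 0.035, against -0.0031 over all genes. That median changed sign when endostatin 4 was left out, to -0.26, with 5 of 33 members positive and 3 at an unadjusted p under 0.05, against 2.14% of all genes. Without control 3 and endostatin 4 it was also -0.26, with 4 of 33 positive and 14 under that p, against 5.91% of all genes. Without endostatin 3 it was 0.20, with 32 of 36 positive and 8 under that p, against 5.36% of all genes. In all 8 libraries the member under that p was Serpinc1, with a slope of 0.46 (SE 0.065, 95% interval 0.31 to 0.62; edgeR adjusted p = 0.0701). DESeq2 called it (adjusted p = 3.04e-05), as did edgeR without control 3 (adjusted p = 0.0308) and without the treatment term (adjusted p = 0.00703). Without endostatin 4, no gene at all passed, so the calls rest on that library, and without control 3 and endostatin 4 only 2 genes did.

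Serpinc1 encodes antithrombin, the plasma inhibitor of thrombin and factor Xa. Its level was 7.47, 3.04, 0.839 and 1.40 TPM in control and 17.2, 22.9, 2.77 and 35.4 TPM in endostatin libraries, a ratio of 42.2 from lowest to highest. Its protein-coding transcripts alone were at 6.02, 1.64, 0.267 and 0.0417 TPM and 11.8, 14.3, 0.0727 and 20.7 TPM. Retained-intron transcripts of the gene were at 0.560, 0.785, 0.572 and 1.06 TPM and 1.36, 1.17, 2.06 and 2.45 TPM. So the coding transcripts were at 0.267 TPM or less in the 3 libraries with the lowest hepatocyte index, where the retained-intron forms were the larger part.

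Of the members without a test in the main fits, Proc, Serpind1 and F7 are known as liver products. Proc, the protein C gene, was at 0.476, 0.490, 0.158 and 0.261 TPM in control and 0.956, 3.83, 0 and 4.05 TPM in endostatin libraries. Serpind1, which encodes heparin cofactor II, was at 0.324, 0.357, 0.0580 and 0 TPM and 1.05, 1.81, 0.0499 and 3.02 TPM. In Proc and Serpind1, endostatin 2 and 4 were highest, and the lowest 3 libraries were control 3, control 4 and endostatin 3. F7 was at 0.557, 0.171, 0.324 and 0.107 TPM and 0.348, 0.680, 0.390 and 0.873 TPM, an order that differed from that of the index, with endostatin 3 above endostatin 1 and control 3 above control 2. F10 had a slope of 0.16 (SE 0.10) and Cfi one of 0.68 (SE 0.36; edgeR unadjusted p = 0.101), with intervals that include 0.

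**Figure D2:**
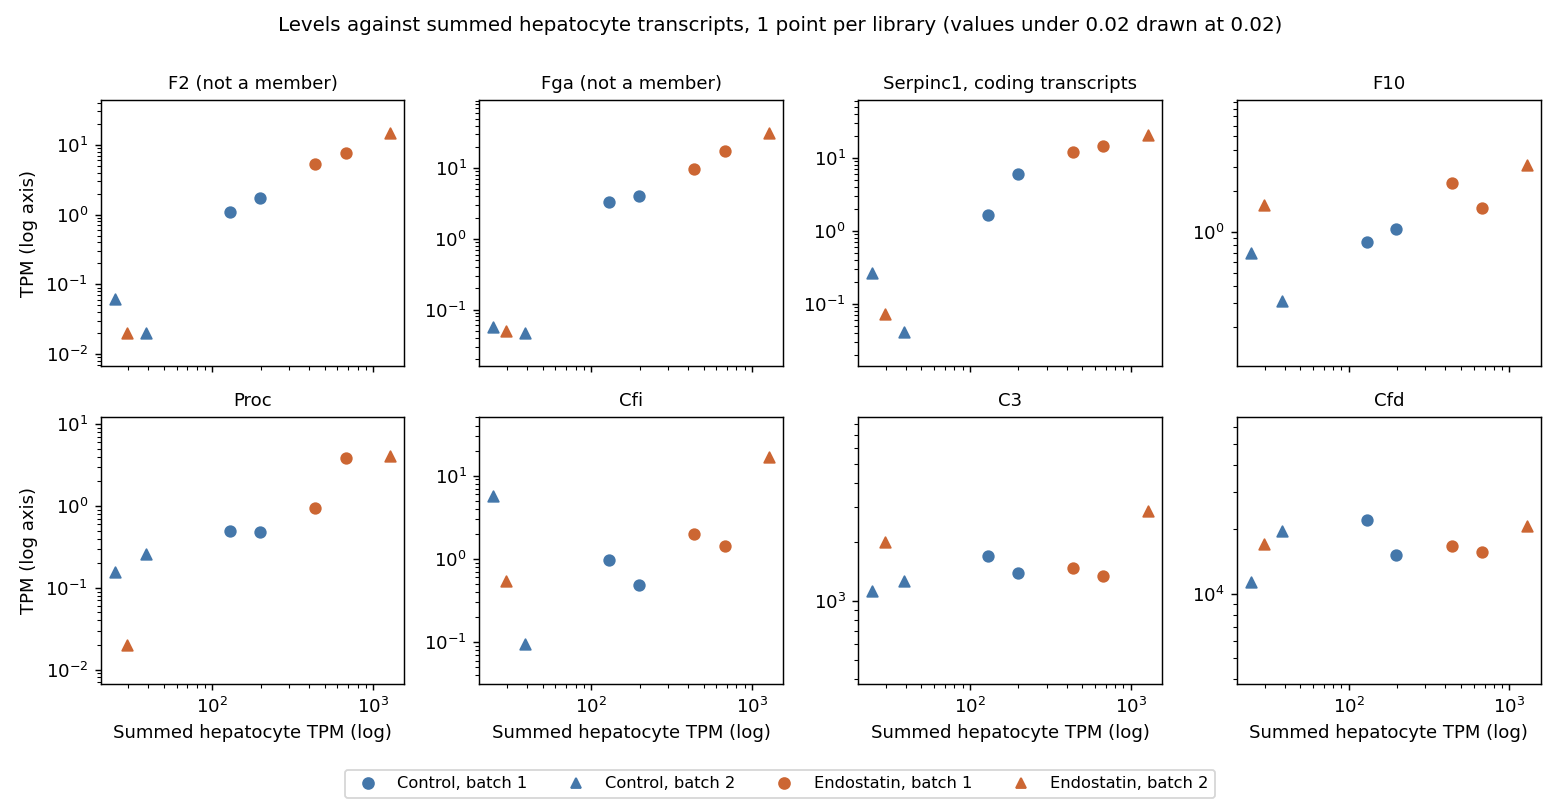
Levels of 8 genes (F2, Fga, the coding transcripts of Serpinc1, F10, Proc, Cfi, C3 and Cfd) against the hepatocyte index, the summed TPM of 26 liver genes, with both axes logarithmic, one point per library and the lowest values drawn at the floor named in the title. F2, Fga and the Serpinc1 coding transcripts are lowest in the 3 libraries with the lowest index and highest in endostatin 4, and C3 is highest in endostatin 4 but second in endostatin 3, where the index is 29.6 TPM.

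With all 8 libraries the slopes of the abundant members were near 0, which did not hold for each subset. Cfd had 0.062 per doubling (95% interval -0.21 to 0.33), C3 0.11 (-0.13 to 0.35) and C1qa -0.013 (-0.19 to 0.16). Without control 3 and endostatin 4, C3 had -0.35 (SE 0.12) and Cfd -0.081 (SE 0.15), and without endostatin 4 alone C3 had -0.35 (SE 0.25). In control 3, with the lowest index, C3 was still at 1126 TPM and C4b at 222 TPM while Alb was at 10.0 TPM. Among the pathway genes that are no members, 5 of the 10 tested liver-made coagulation genes were past the threshold: F2, the prothrombin gene (1.77, SE 0.18), Fga, Fgb and Fgg, the 3 fibrinogen chains (1.77, 2.01 and 1.77; SE 0.12, 0.16 and 0.21), and Plg, the plasminogen gene (1.88, SE 0.17). F2, Fgg and Plg also lost the call without control 1 or 2 or any single endostatin library, and Fga and Fgb without endostatin 3 or 4. Fga was at 4.02, 3.28, 0.0570 and 0.0471 TPM in control and 9.87, 17.4, 0.0490 and 31.0 TPM in endostatin libraries. F2 and Plg were at 0 TPM in control 4 and endostatin 3, Fgb in control 3 and endostatin 3, and Fgg in control 3 and 4. In control 3, control 4 and endostatin 3 the index itself was at 24.6, 38.8 and 29.6 TPM. The size of these slopes therefore depends in part on levels at or near 0. None of the 6 tested liver-made complement genes passed in edgeR (3 at an unadjusted p under 0.05); Hc, the C5 gene, had the smallest adjusted p (0.138; slope 0.85, SE 0.14). Of 14 receptor, regulator and sensor genes and 14 vascular genes 0 passed in edgeR, with 1 and 2 at an unadjusted p under 0.05. The share of all genes under that p was 4.74%.

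The question of the series is whether endostatin changes the tissue's RNA within 2 h. No member passed the threshold for endostatin against control (0 of 33, and 0% of 15184 genes, in edgeR; DESeq2 called 0 members and 4 genes). Differences were mostly positive: 30 of 33 members, with a median of 0.41 on the log2 scale against -0.012 over all genes. At an unadjusted p under 0.05 in edgeR were 11 of 33 members, all higher with endostatin, against 2.30% of all genes higher and 0.896% lower. DESeq2 had 16 of 33, against 3.95% of all genes in either direction. Both Cfb and F10, 2 of 33, had every endostatin library above every control in TPM, against 1.34% of all genes, and 0 of 33 had every one below, against 0.454%.

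The 11 genes were C1qb, C1s1, C4b, Cfb, C5ar1, Serping1, F10, Thbd, Pros1, Serpinc1 and Plaur. Of these, the scarce genes Serpinc1 and F10 had the largest differences. Serpinc1 differed by 2.03 (SE 0.51; edgeR unadjusted p = 0.00434, adjusted p = 1.00) and F10 by 1.48 (SE 0.35; edgeR unadjusted p = 0.00285, adjusted p = 1.00). The hepatocyte index was at 24.6 to 198 TPM in control and 29.6 to 1280.1 TPM in endostatin libraries, with endostatin 1, 2 and 4 above every control. Its part in the Serpinc1 difference was not tested, since index and treatment cannot be fully told apart in these 8 libraries. In a fit with the index as covariate, Serpinc1 differed by 0.74 (SE 0.24) and F10 by 1.10 (SE 0.38). In that fit 6 of 33 members had an unadjusted p under 0.05 in edgeR, against 2.69% of all genes. Among abundant genes, C4b, at 232 ± 34.4 (SD, n = 4) in control and 399 ± 121 (SD, n = 4) in endostatin libraries, differed by 0.72 (SE 0.24; 95% interval 0.16 to 1.27), Cfb by 0.54 (SE 0.20), C1qb by 0.50 (SE 0.21) and Serping1 by 0.36 (SE 0.15). C3, at 1371 ± 245 (SD, n = 4) in control and 1918 ± 702 (SD, n = 4) in endostatin libraries, differed by 0.41 (SE 0.32; 95% interval -0.32 to 1.15), Masp1 by -0.33 (SE 0.22) and Tfpi by -0.0025 (SE 0.10).

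By role, 3 of 7 classical pathway genes, 1 of 3 alternative pathway genes, 1 of 2 receptors, 1 of 5 regulators, 1 of 4 clotting factors, 3 of 5 anticoagulants and 1 of 3 fibrinolysis genes were among the 11. The median difference was 0.41 over 21 complement members and 0.39 over 12 coagulation and fibrinolysis members. These counts depended on single libraries: in place of 11 of 33 (3.19% of all genes in either direction), they were 5 of 36 without control 1 (2.29%), 4 of 37 without control 3 (6.08%), 3 of 37 without control 4 (2.37%) and 21 of 37 without control 2 (5.54%). Without endostatin 3 they were 6 of 36 (2.59%) and without endostatin 4 they were 6 of 33 (2.66%). Without both control 3 and endostatin 4, 7 of 33 had such a p, against 7.20% of all genes.

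The within-batch values were unequal. In batch 1 the median endostatin difference over the 33 members was 0.056, and 0 had an unadjusted p under 0.05 in edgeR (0.494% of all genes, higher). In batch 2 the median was 0.78, and 23 of 33 had one, all higher, against 4.78% of all genes, with 0 past the threshold after adjustment. By level, both endostatin libraries of batch 2 lay above both controls in 23 of 33 members, against 14.3% of all genes. In batch 1 the same held for 7 of 33 members (Cfb, Cfi, F5, F10, Thbd, Serpinc1 and Plaur), against 28.5% of all genes. The 4 libraries of a batch leave 2 a group, and the fit shares one estimate of spread over all 8.

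**Figure D3:**
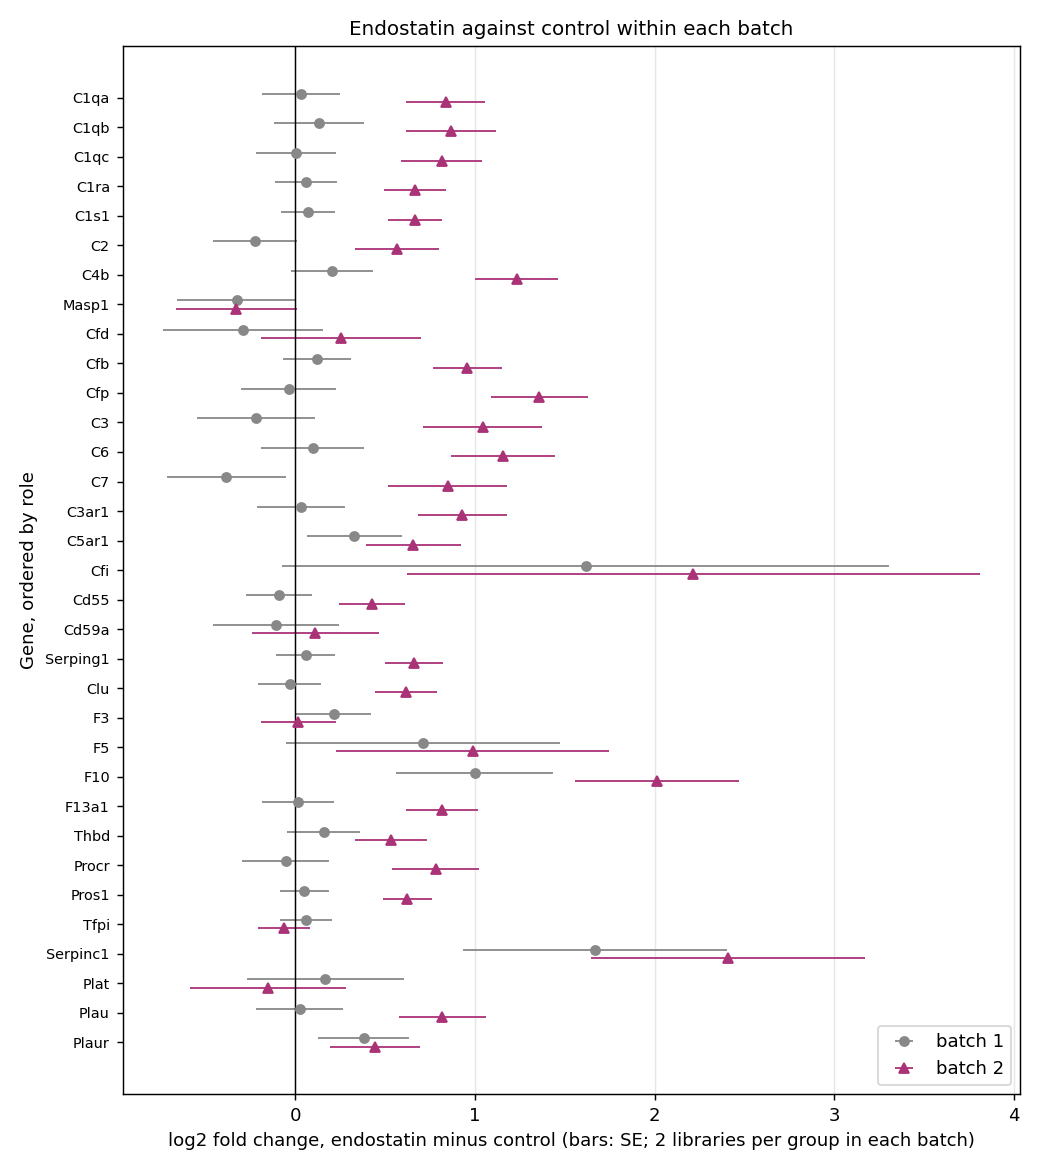
Log2 endostatin difference within batch 1 and within batch 2 for each of the 33 tested genes, with bars for the standard error of the edgeR fit. Most complement genes lie near 0 in batch 1 and between about 0.6 and 1.4 in batch 2. In batch 2 Cfd, Masp1, Cd59a and Cd55 lie lower. Cfi lies higher, at 1.62 in batch 1 and 2.21 in batch 2. Of the coagulation and fibrinolysis genes, F3, Tfpi and Plat lie lowest in batch 2.

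The test of the difference between batches called no member (0 of 33, and 0% of all genes, in edgeR; DESeq2 called 26 genes and 0 members, with a lowest adjusted p among members of 0.0777). At an unadjusted p under 0.05 in edgeR were 17 of 33 members, all with the larger difference in batch 2, against 2.19% of all genes. They were 14 of 21 complement members (C1qa, C1qc, C1ra, C1s1, C2, C4b, Cfb, Cfp, C3, C6, C7, C3ar1, Serping1 and Clu) and 3 of 12 others (F13a1, Procr and Pros1). Cfp had -0.036 (SE 0.26) in batch 1 and 1.36 (SE 0.27) in batch 2, a difference of 1.39 (95% interval 0.50 to 2.29; edgeR unadjusted p = 0.00782, adjusted p = 0.997). C4b had 0.20 (SE 0.23) and 1.23 (SE 0.23), and C3 -0.22 (SE 0.33) and 1.04 (SE 0.33). C1qa had 0.030 (SE 0.22) and 0.84 (SE 0.22).

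The 6 members with the lowest batch 2 differences included 3 of complement. In batch 2 Cfd differed by 0.25 (SE 0.45), Cd59a by 0.11 (SE 0.35), F3 by 0.017 (SE 0.21), Tfpi by -0.064 (SE 0.15), Plat by -0.15 (SE 0.43) and Masp1 by -0.33 (SE 0.34). In place of 17 of 33 (3.47% of all genes in either direction), the members under that p in the test between batches were 2 of 37 without control 2 (1.82%), 4 of 35 without endostatin 1 (1.72%), 4 of 33 without endostatin 2 (1.88%), 6 of 33 without endostatin 4 (2.74%) and 10 of 37 without control 3 (3.99%). Without control 3 and endostatin 4 together there were 9 of 33 (4.45%).

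Macrophage markers moved in the same libraries. Their sum over 12 genes was 709, 1022, 798 and 814 TPM in control and 859, 892, 1455 and 1531 TPM in endostatin libraries, and 9 of the 12 had both endostatin libraries of batch 2 above both controls, against 2 of 12 in batch 1. None of the 12 was at 0 in all libraries. Fibroblast markers summed to 2089, 2901, 3243 and 2142 TPM and 2848, 2506, 3139 and 4326 TPM, with 4 of 10 in that order in batch 2 and 0 of 10 in batch 1. Mesothelial markers summed to 357, 322, 663 and 268 TPM and 408, 291, 528 and 590.3 TPM, with 4 of 8 in batch 2 and 2 of 8 in batch 1. Blood endothelial markers lay between 433 and 579 TPM, with 1 of 9 in batch 2 and 3 of 9 in batch 1. Adipocyte markers had 0 of 9 and 1 of 9. Over all genes tested the share in that order was 14.3% in batch 2 and 28.5% in batch 1. Mitochondrial transcripts were 4.58, 5.19, 2.82 and 3.31% of counts in control and 4.44, 4.23, 2.21 and 2.13% in endostatin libraries, lower with endostatin in both batches and lower in batch 2. The part of cell makeup and of the mitochondrial share in the members' differences was not tested.

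**Figure D4:**
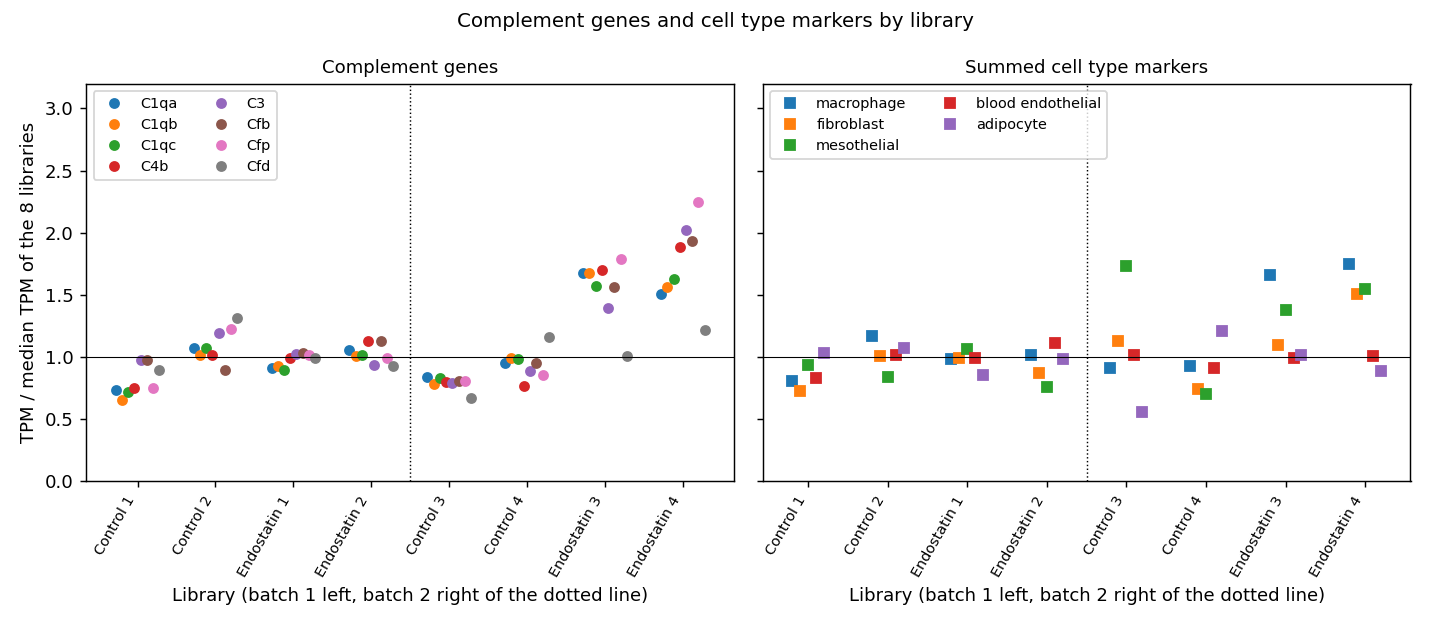
Levels of 8 complement genes (left) and summed markers of 5 cell types (right) in each library, as TPM divided by that gene's or list's median over the 8 libraries, with batch 2 to the right of the dotted line. The C1q genes, C4b, C3, Cfb and Cfp are high in endostatin 3 and 4 and so is the macrophage sum; Cfd is not.

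Between the batches themselves, 6 genes passed the threshold (0.0395% of 15184) and 0 of 33 members did (edgeR; DESeq2 called 0 members). At an unadjusted p under 0.05 in edgeR were 2 members, against 9.96% of all genes. Thbd was higher in batch 2 by 0.37 (SE 0.15) and Tfpi differed by -0.32 (SE 0.10).

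The other genes of these pathways, 63 on 4 lists of which 44 were tested, gave 0 calls for endostatin in edgeR. There were 11 at an unadjusted p under 0.05, all higher, against 2.30% of all genes higher. Of these 7 of 10 were liver-made coagulation genes, 2 of 6 liver-made complement genes, 2 of 14 receptors, regulators and sensors, and 0 of 14 vascular genes. Vtn, which encodes the adhesion protein vitronectin, differed by 0.76 (SE 0.23), Kng1, a kininogen gene, by 3.77 (SE 1.17), and Hc by 2.87 (SE 0.97). In control 3 and 4 Kng1 was at 0.0598 and 0 TPM and Hc at 0.0810 and 0.0335 TPM, so both differences rest in part on levels at or near 0. C4bp, the C4-binding protein gene, differed by 1.79 (SE 0.74). Itgam and Itgb2, the 2 chains of complement receptor 3 on myeloid cells, differed by 0.74 (SE 0.25) and 0.52 (SE 0.22). Among genes of that list with at least 1 CPM, C1qbp and Colec12 were below 0, at -0.061 (SE 0.074) and -0.027 (SE 0.10). On the vascular list, Thbs1, the thrombospondin 1 gene, differed by 0.65 (SE 0.49), Adamts13, a protease that cuts von Willebrand factor, by 0.16 (SE 0.23), the thrombin receptor gene F2r by -0.41 (SE 0.40) and S100a10 by -0.022 (SE 0.13).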

How the data were processed

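White adipose RNA was measured in 8 libraries, 4 a group, from total RNA depleted of ribosomal RNA with a strand-specific kit, per the labels' protocols. The deposited files hold estimated counts per transcript from Salmon with GRCm39, per the submitters' processing notes; its version and index were not given in the sources used here. TPM, also deposited by the authors in these files, is scaled per length to the same total in each library. Of 115620 transcripts 113710 (98.3%) matched GENCODE M21, an older build used only for names; the others stayed as features of their own. For each gene the estimated counts were added and rounded to whole numbers, and its TPM added. Salmon divides reads between similar transcripts, so near-copies are uncertain.

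Counts were filtered with filterByExpr (15184 genes), scaled by TMM and fitted with edgeR 4.0.16 (R 4.3.3, quasi-likelihood, two-sided, Benjamini-Hochberg over all genes, threshold 0.05) with batch and treatment. Further fits added the batch by treatment interaction or log2 of the hepatocyte index (26 genes). The scripts were tested on simulated data. All 37 members are named; of other pathway genes, those past the threshold or, where a list has none, up to 2 per direction with the smallest p and at least 1 CPM (for batch, interaction and slope, in the closing section where not in the report); some genes under this rule are not reported here. Members and lists were chosen with earlier results of these data known. Alternatives were DESeq2 1.42.0, its size factors in edgeR, no filter, other terms, and leaving out libraries. Same-numbered libraries were not taken as pairs.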

Additional observations from a re-analysis of the deposited data

Results flagged for a closer look

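In 74 groups of 4 libraries (each member in each group) the highest and lowest values were compared with the rest, and 5 groups held 1 library far from the other 3; chance gives about 1 in 20. Cfi was 5.65 TPM in control 3, while the other controls lay at 0.0944 to 0.965 TPM. In endostatin 4, Cfi was 16.7 TPM, against 0.540 to 1.99 TPM in the other endostatin libraries. F5 was 4.27 TPM in endostatin 4, while its group's other values were 1.95 to 2.09 TPM. Plat was 72.0 TPM in control 3, where the other controls had 21.1 to 28.3 TPM. Tfpi was 15.3 TPM in control 4, below the 19.8 to 20.0 TPM of the other controls. Of these 5 values 4 were in control 3 or endostatin 4, the libraries with the highest sums of oviduct and uterus markers; the part of those cells was not tested.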

How the results depend on the processing

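With the replicate number as a block in place of batch, 0 genes passed for endostatin (307 at an unadjusted p under 0.05, 5 of them members), and Cfd gave 0.035. Deviations of same-numbered libraries from their group means correlated at 0.211, 0.144, -0.0732 and -0.295, and not every library matched its own number best, so the numbers were not taken as pairs. The count for endostatin was 4 genes with DESeq2 and 0 otherwise. For the difference between batches DESeq2 called 26 genes and the other settings 0. For batch 2 against batch 1 the counts were 171 with DESeq2, 11 with no filter, 27 without control 3 and endostatin 4, and 0 to 18 with 1 library left out. On the hepatocyte index they were 118 with DESeq2, 78 without the treatment term, 2 without control 3 and endostatin 4, and 0 to 97 with 1 library left out (0 without endostatin 4, 97 without control 3).

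Directions turned in genes with differences near 0 and in scarce genes; the cause was not tested. For endostatin, without control 3 and endostatin 4, C2 gave -0.055, C7 -0.10 and Cd59a -0.050. With the index as covariate C7 gave -0.045, Cfi -0.37 and F3 -0.012. Cd59a gave -0.0051 with DESeq2 size factors, -0.0050 with DESeq2 and -0.0059 without the batch term. Without that term Tfpi gave 0.0046 and Plat -0.024, and with no filter Tfpi gave 0.00024. With 1 library left out the ranges were -0.049 to 0.29 for C2, -0.26 to 0.15 for Cfd, -0.0052 to 0.51 for C7, -0.21 to 0.18 for Cd59a, -0.0010 to 0.21 for F3, -0.060 to 0.044 for Tfpi and -0.20 to 0.39 for Plat.

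For the difference between batches, Masp1 gave 0.0068 with DESeq2 size factors and 0.0064 with DESeq2. Without control 3 and endostatin 4, Cfd gave -0.0048, Serpinc1 -1.13 and Plat 0.47. The ranges with 1 library left out were -0.55 to 0.40 for Masp1, -3.33 to 4.67 for Cfi, -0.25 to 0.75 for Cd59a, -0.48 to 0.045 for F3, -0.51 to 2.13 for F5, -1.12 to 1.53 for Serpinc1, -0.88 to 0.60 for Plat and -0.29 to 0.35 for Plaur. For the slope, without control 3 and endostatin 4, F10 gave -0.27, Cfi -0.39, C3 -0.35 and Cfd -0.081, and leaving out 1 library gave -0.26 to 0.32 for F10, -0.35 to 0.38 for C3 and -0.080 to 0.20 for Cfd. Depth limits Proc, Serpind1, F7 and Vsig4, which did not pass the filter with all 8 libraries. They were tested only with no filter and, some or all of them, with some libraries left out. With no filter, 15 of 37 members had an unadjusted p under 0.05 in edgeR for endostatin, against 3.02% of all genes. For the slope 3 of 37 had one, against 4.43% of all genes.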

Other observations

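In several genes of these pathways outside the 37, endostatin 3 and 4 were the 2 highest libraries, as in the C1q genes. They included Fcna, Itgam, Itgb2, Gas6 and Thbs1. Fcna, which encodes ficolin A, a lectin pathway sensor made by macrophages, was at 39.1, 94.1, 53.0 and 68.8 TPM in control and 47.9, 69.1, 149 and 272 TPM in endostatin libraries. In the test of the difference between batches, its endostatin difference was larger in batch 2 by 2.06 (SE 0.69, edgeR unadjusted p = 0.0208, adjusted p = 0.997). Itgam was at 10.5, 17.1, 12.5 and 9.27 TPM and 14.4, 17.6, 26.5 and 27.5 TPM. In that test its endostatin difference was larger in batch 2 by 1.21 (SE 0.23, edgeR unadjusted p = 0.00124, adjusted p = 0.997). Cr1l, which encodes Crry, the rodent regulator of C3 convertases, lay between 79.5 and 101 TPM, and Gas6, a vitamin K-dependent protein related to protein S, between 182 and 359 TPM.

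For the same test Tfpi2 gave 1.49 (SE 0.53), Fgg 8.96 (SE 4.03), Kng1 4.75 (SE 2.23) and Hc 2.26 (SE 1.85). Fgg was at 0 and 0 TPM in control 3 and 4 and at 0.0620 and 23.1 TPM in endostatin 3 and 4. Kng1 was at 0.0598 and 0 TPM and at 0.366 and 8.89 TPM there. The large values of Fgg and Kng1 thus rest on controls at or near 0 and mostly on endostatin 4. The endostatin difference was lower in batch 2 than in batch 1 for F2r, at -1.24 (SE 0.71), and F2rl1, at -1.25 (SE 1.37). The same held for Cd46 at -0.59 (SE 0.42), Cd93 at -0.094 (SE 0.18) and C8g at -0.021 (SE 0.66). None of these was past the threshold in edgeR. F2r was 13.3 TPM and F2rl1 7.82 TPM in control 3, the highest of the 8 libraries.

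Between batches, S100a10 was higher in batch 2 by 0.33 (SE 0.13), Serpine2 by 0.49 (SE 0.26), C5ar2 by 0.44 (SE 0.21), Colec12 by 0.14 (SE 0.10) and C4bp by 0.74 (SE 0.73). Kng2 gave -0.82 (SE 0.28), Kng1 -1.61 (SE 1.12), Hc -1.16 (SE 0.94), Cpn2 -0.28 (SE 1.22), Cd46 -0.35 (SE 0.22), C1rl -0.26 (SE 0.23), Plgrkt -0.21 (SE 0.11) and F8 -0.31 (SE 0.18). On the hepatocyte index the slopes were 0.59 (SE 0.18) for C4bp, 0.18 (SE 0.15) for Fcna, 0.081 (SE 0.070) for C5ar2, 0.11 (SE 0.062) for Vwf, 0.12 (SE 0.073) for Adamts13, -0.31 (SE 0.11) for Itgax, -0.11 (SE 0.068) for Itgb2, -0.15 (SE 0.061) for Anxa2 and -0.075 (SE 0.039) for S100a10.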
